A study of Homo sapiens with 6 samples.

Results

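S100 genes encode small calcium-binding proteins, and 10 of them were followed here in SW839, an established human renal cell carcinoma line, after knockdown of RNF25. The 10 genes are S100A2, S100A3, S100A4, S100A6, S100A8, S100A9, S100A10, S100A11, S100A14 and S100A16. They were taken by symbol from the table of 30267 genes, and each of the 10 had a row. RNF25 is a RING-type E3 ubiquitin ligase, an enzyme that attaches ubiquitin to other proteins. Bulk RNA-seq was available for 6 libraries. There were 3 libraries of SW839 cells with a short hairpin RNA against RNF25 (shRNF25) and 3 of SW839 cells with the empty pLKO vector (shControl). Per the study's methods, hairpins were delivered by lentivirus and infected cells were selected with puromycin in growth medium, and a stranded library was made from RNA depleted of ribosomal RNA. A single hairpin is named in the library names, and since the treatment field names the RNF25 hairpin for the controls too, libraries were grouped by title and genotype label. The labels name no batch, so knockdown and any batch shared by a group cannot be told apart. The samples are described as biological triplicates, with no word on separate infections, and p-values measure the spread between these samples only.

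S100 proteins carry a pair of EF-hands, the loops that bind calcium, and work mostly as dimers. When calcium binds, a hydrophobic face opens and the dimer grips a partner such as an annexin, a myosin heavy chain or an enzyme. Some members also leave the cell and act on the receptors RAGE and TLR4, where they are known as alarm signals of inflammation. Most of the genes lie side by side in the epidermal differentiation region of human chromosome 1, and the family is well known for uneven expression in carcinomas.

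The family moved in both directions. S100A8 and S100A9, whose products pair as calprotectin, fell in shRNF25, S100A8 from a mean of 132.0 to 0.929 normalized counts and S100A9 from 4276 to 1775. S100A2, S100A4 and S100A6 rose, by 2.13, 1.69 and 1.36 on the log2 scale. The other 5 genes were not called, and these included the annexin partners S100A10 and S100A11. A normalized count is a number of reads divided by the library's scaling factor, as deposited. A gene was called when limma's Benjamini-Hochberg adjusted p was below 0.05 and the change was at least 1.5-fold. Fold changes are on the scale log2(normalized count + 1), which understates the change of low genes, and each is given with limma's moderated standard error (SE). All 10 genes passed the filter on low values, which asked for 3 or more libraries with a normalized count of 10 or above. S100A8 did so only through shControl, so it could enter the counts below only as a gene that differed. Of the 10, 2 were called lower, where 7.1% of the 16554 genes tested were called lower, and 3 higher, where 8.65% were called higher. The median log2 fold change was 0.20 over the 10 genes and -0.013 over all genes tested. The 3 libraries of one group lay wholly below those of the other for 3 members lower in shRNF25, against 21.8% of all genes tested, and wholly above for 5 members, against 20.7%. Scaled to counts per library total instead (CPM), the log2 fold changes of all genes shifted upward by a median of 0.21 and 77.7% of all calls were higher, where 54.9% were with the deposited scaling, while the counts of members called stayed at 2 and 3. In bulk RNA, fewer cells with a transcript and less of it in each cell cannot be told apart.

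**Figure D1:**
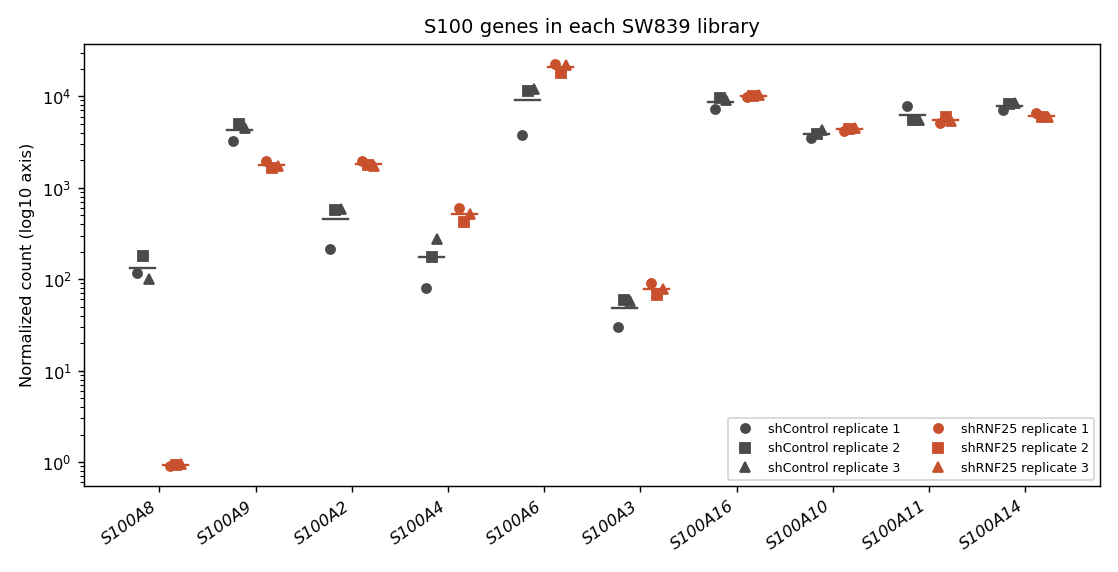
Normalized counts of the 10 S100 genes (log10 axis) in each of the 6 SW839 libraries, with 1 point for each library, groups marked by colour, replicates by shape and a line at each mean. S100A8 sits near 1 in each shRNF25 library and above 100 in each shControl library, and the shControl points of S100A2, S100A4 and S100A6 spread far more widely than the shRNF25 points.

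Between 18647460 and 19943154 reads were counted on genes per library. RNF25 itself stood at 694.2, 533.5 and 536.4 normalized counts in shControl 1 to 3 and at 214.1, 245.6 and 265.0 in shRNF25 1 to 3, a log2 fold change of -1.27 (SE 0.15, adjusted p = 0.000585, limma). Across genes, libraries of shRNF25 correlated at 0.994 with each other, and those of shControl at 0.976 to 0.987. The shControl 1 library stood apart for these genes: it lay at least 1.5-fold below both other controls for S100A2, S100A3, S100A4 and S100A6, 4 of the 10, whereas 8.15% of all genes tested did so. Whatever set this library apart was not tested, and values without it are given beside the genes it touches. Of the line's markers, the renal factor PAX8 stood at 127.4 and the epithelial keratin KRT8 at 28459 normalized counts in shControl, while PTPRC, which marks blood cells, stood at 11.4. CA9, a marker of clear cell renal carcinoma, was low and uneven, at 7.74, 12.3 and 50.7 in shControl 1 to 3. Of 6 line markers tested, 0 were called lower, where 7.1% of all genes tested were, and 1 higher, where 8.65% were. The higher one was VIM, at 355.4 in shControl and 831.9 in shRNF25 (log2 fold change 1.31, adjusted p = 0.00805, limma). PAX8 stood at 94.0 in shRNF25 and was not called.

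The start regions of the 5 genes called are shown because the genes moved in opposite directions while lying within a single stretch of chromosome 1. Each is a RefSeq window of 300 bases on GRCh38.p14, 250 before the annotated start and 50 after it, read 5′ to 3′ on the gene's strand. For S100A8, with 3 windows listed, the middle one is shown, and for S100A2, with 2, the first. Capitals mark TATAAA in S100A8, S100A9 and S100A4, the AP-1 motif TGANTCA and the hypoxia core GCGTG in S100A2, and GCGTG in S100A6.
S100A8, chr1:153391024-153391323, minus strand: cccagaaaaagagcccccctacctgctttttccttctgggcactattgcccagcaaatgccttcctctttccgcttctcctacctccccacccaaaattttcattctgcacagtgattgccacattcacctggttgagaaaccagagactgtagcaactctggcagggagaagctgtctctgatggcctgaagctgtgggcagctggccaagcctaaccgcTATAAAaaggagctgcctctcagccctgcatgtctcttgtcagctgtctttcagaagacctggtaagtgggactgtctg
S100A9, chr1:153357604-153357903, plus strand: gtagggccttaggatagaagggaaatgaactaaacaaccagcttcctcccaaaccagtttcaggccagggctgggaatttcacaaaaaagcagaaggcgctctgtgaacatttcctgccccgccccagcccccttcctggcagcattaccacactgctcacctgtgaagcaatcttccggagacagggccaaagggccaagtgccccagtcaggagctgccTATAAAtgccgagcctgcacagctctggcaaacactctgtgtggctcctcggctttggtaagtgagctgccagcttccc
S100A2, chr1:153565795-153566094, minus strand: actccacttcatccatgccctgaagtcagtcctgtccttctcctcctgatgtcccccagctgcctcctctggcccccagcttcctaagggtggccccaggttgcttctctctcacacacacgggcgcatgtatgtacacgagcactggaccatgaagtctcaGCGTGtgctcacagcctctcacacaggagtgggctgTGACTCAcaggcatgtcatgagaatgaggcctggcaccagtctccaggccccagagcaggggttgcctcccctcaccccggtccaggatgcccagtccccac
S100A4, chr1:153545757-153546056, minus strand: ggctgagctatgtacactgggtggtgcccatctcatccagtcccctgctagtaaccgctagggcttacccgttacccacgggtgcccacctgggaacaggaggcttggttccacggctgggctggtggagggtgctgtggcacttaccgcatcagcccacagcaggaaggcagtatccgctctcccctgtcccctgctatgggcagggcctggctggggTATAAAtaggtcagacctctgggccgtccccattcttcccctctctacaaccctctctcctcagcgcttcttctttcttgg
S100A6, chr1:153535942-153536241, minus strand: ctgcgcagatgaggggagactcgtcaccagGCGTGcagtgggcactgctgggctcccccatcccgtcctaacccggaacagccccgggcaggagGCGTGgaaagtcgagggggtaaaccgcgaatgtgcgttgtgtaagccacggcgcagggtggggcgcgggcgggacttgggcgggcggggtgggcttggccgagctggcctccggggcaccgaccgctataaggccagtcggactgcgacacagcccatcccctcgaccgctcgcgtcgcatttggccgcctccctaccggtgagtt
Both strands were searched. TATAAA, the box that places the start of transcription, began 29 bases before the start in the windows shown for S100A8 and S100A9 and 31 bases before it in S100A4. Of the other windows of S100A8, which start elsewhere, 1 held TATAAA and 1 did not, and the annotated start of the window shown had no coding transcript of GENCODE 29 beginning within 10 bases of it, as both others had. The AP-1 motif began 52 bases before the start in S100A2, and S100A3 had another at 225 bases before its start. The other window of S100A2 held no AP-1 match. The annotated starts of S100A2, S100A3, S100A10, S100A11 and S100A16 also had no coding transcript beginning within 10 bases, so distances from them are less certain. The hypoxia core (ACGTG or GCGTG) was found in S100A2, S100A6, S100A10, S100A11 and in a window of S100A16. A match to the general NF-κB motif was found in S100A14 alone, 202 bases before the start, and a match to the general C/EBP motif in S100A11 alone. Over the members' 14 windows, TATAAA was present in 4, AP-1 in 2, NF-κB in 1, C/EBP in 1 and the hypoxia core in 5. The same TATAAA of S100A8 lies in overlapping windows and is counted in each. Among all 35116 windows the shares were 11.5%, 7.71%, 11.3%, 10.5% and 48.4%. These matches describe the letters of the window only.

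S100A8 and S100A9 form calprotectin, the zinc- and manganese-binding dimer that neutrophils and inflamed epithelia release. S100A8 (ENSG00000143546.9, 1:153390032-153391188, minus strand, GRCh38) stood at 116.1, 178.5 and 101.5 normalized counts in the shControl libraries and at 0.911, 0.924 and 0.953 in the shRNF25 libraries. In reads these were 105, 174 and 94 against a single read in each knockdown library. The groups were far apart, and S100A8 passed the filter on low values only through shControl, so it could enter the test only as a gene that differed. Its mean was 132.0 ± 40.9 in shControl and 0.929 ± 0.0216 in shRNF25 (SD, n = 3). The log2 fold change was -6.06 (SE 0.30, adjusted p = 8.33e-06, limma), and its size depends on the pseudocount because the knockdown side rests on so few reads. From summed reads, 373 against 3, shControl was higher by a ratio of 143.1, with an exact 95% interval of 48.6 to 697.1 that covers counting error only.

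S100A9 (ENSG00000163220.10, 1:153357854-153361027, plus strand) stood far above S100A8 per length in both groups. It stood at 3274, 5006 and 4548 normalized counts in shControl and at 1960, 1627 and 1738 in shRNF25. Every knockdown library lay below every control, at 4276 ± 897.3 against 1775 ± 169.5 (SD, n = 3), or 41.5% of control. S100A9 fell by 1.25 on the log2 scale (SE 0.16, adjusted p = 0.000987, limma). The ratio of the pair is given as a description, with no test, because S100A8 could pass the filter only as a gene that differed. Per kilobase of exon, there were 0.0203, 0.0205 and 0.0128 reads of S100A8 for each read of S100A9 in shControl, and 0.000267, 0.000326 and 0.000315 in shRNF25. S100A9 transcripts far outnumbered S100A8 transcripts in both groups, and the ratios of the groups did not overlap. The knockdown ratios each rest on 1 read of S100A8. The level of the ratio depends on exon lengths that take in every annotated exon. For S100A8 this was 1006 bases, while its longest coding transcript has 523, and for S100A9 both were 577.

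Calprotectin is abundant in myeloid cells, so their markers were read beside it. Of 14 myeloid marker genes, 8 had a row and 2 passed the filter, and their summed level was 43.2 to 53.4 normalized counts in shControl and 53.4 to 79.3 in shRNF25. LYZ and CD14 were near 0 in both groups, at 1.74 and 4.93 normalized counts in shControl. Of the 2 tested, 1 was called higher, where 8.65% of all genes tested were, and 0 lower, where 7.1% were. The higher one was ITGAM, an integrin chain of myeloid cells, at 21.1 in shControl and 39.6 in shRNF25 (log2 fold change 0.86, adjusted p = 0.0465, limma, and not called by DESeq2). The other, PTPRC, stood at 11.4 and 9.52 and was not called (log2 fold change -0.38, adjusted p = 0.581, limma). The part of myeloid cells in the change of calprotectin was not tested. Squamous epithelial genes, some of which share the chromosome region and which also accompany calprotectin in stressed epithelium, had a summed level of 12403 to 13401 in shControl and 8476 to 9130 in shRNF25. Most of these sums came from PI3 and SFN. PI3 stood at 6601 in shControl and 3314 in shRNF25 and was called lower, while SFN stood at 4288 and 4361 and was not called. KRT16 was not called either, at 115.0 and 97.9. Of 11 squamous genes tested, 5 were called lower, where 7.1% of all genes tested were, and 2 higher, where 8.65% were. Among the lower were KRT6B at -2.24, KRT6A at -2.12 and SPRR2D at -1.66 (log2 fold change), and the higher were DSC3 at 1.15 and FLG at 0.75. SPRR2D passed the filter on low values only through shControl, so it could enter the test only as a gene that differed. The part of the squamous genes in the change of calprotectin was not tested.

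S100A2, S100A4 and S100A6 lie within a short run of S100 genes on the minus strand, with S100A5 and S100A3 between them, and were called higher. S100A2 (ENSG00000196754.10, 1:153561108-153567890), a nuclear S100 protein that binds p53, stood at 211.1, 575.6 and 586.1 normalized counts in shControl and at 1981, 1788 and 1715 in shRNF25. The lowest knockdown library was well above the highest control. Its mean was 457.6 ± 213.5 in shControl and 1828 ± 137.5 in shRNF25 (SD, n = 3), a ratio of 3.99. S100A2 rose by 2.13 on the log2 scale (SE 0.34, adjusted p = 0.00263, limma), the largest rise among the 10 genes. Without the low shControl 1 library the log2 fold change was 1.65 (adjusted p = 3.54e-06, limma).

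S100A4 (ENSG00000196154.11, 1:153543613-153550136), a partner of non-muscle myosin that is known for its link to cell motility and metastasis, stood at 79.6, 174.4 and 276.3 normalized counts in shControl. In shRNF25 it stood at 594.1, 426.7 and 512.8. The groups did not overlap, but the controls themselves spread 3.47-fold from lowest to highest. Means were 176.8 ± 98.4 and 511.2 ± 83.7 (SD, n = 3), and S100A4 rose by 1.69 on the log2 scale (SE 0.37, adjusted p = 0.0124, limma). The log2 fold change was 1.20 (adjusted p = 0.00166) without shControl 1, and the call was lost without shRNF25 1, at 1.57 with an adjusted p of 0.0642 (limma).

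S100A6 (ENSG00000197956.9, 1:153534599-153536244), also called calcyclin, binds the ubiquitin ligase adaptor CACYBP and stood highest of the 10 genes per length in the knockdown. It stood at 3799, 11465 and 11901 normalized counts in shControl and at 22453, 17921 and 21854 in shRNF25. Here too every knockdown library was above every control. Means were 9055 ± 4557 and 20742 ± 2462 (SD, n = 3), and S100A6 rose by 1.36 on the log2 scale (SE 0.37, adjusted p = 0.0309, limma). This was the least secure of the 5 calls: leaving out shRNF25 1, 2 or 3 gave adjusted p-values of 0.114, 0.0671 and 0.0995 (limma), and DESeq2 on whole reads gave 0.0630. Without shControl 1 the log2 fold change was 0.82 (adjusted p = 0.000607, limma).

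The spread of these 3 genes lay almost wholly in the controls. The coefficient of variation was 46.7%, 55.7% and 50.3% in shControl for S100A2, S100A4 and S100A6, and 7.52%, 16.4% and 11.9% in shRNF25. S100A3 (ENSG00000188015.9, 1:153547329-153549372), best known from the hair cuticle, lies within the span of S100A4 on the same strand and shares no exon base with it. It stood at 29.8, 58.5 and 58.3 normalized counts in shControl and at 91.1, 66.5 and 78.2 in shRNF25. Its groups did not overlap either, and the same control library was the low one, but S100A3 was not called (log2 fold change 0.73, SE 0.28, adjusted p = 0.0968, limma). Without shControl 1 its log2 fold change was 0.41 (adjusted p = 0.119, limma).

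S100A10 and S100A11 lie together in a separate stretch, and neither was called. S100A10 (ENSG00000197747.8, 1:151982915-151994390), which has lost the ability to bind calcium and joins annexin A2 in a tetramer at the plasma membrane, stood at 3478, 3894 and 4232 normalized counts in shControl and at 4118, 4404 and 4513 in shRNF25. The groups overlapped, and the log2 fold change was 0.17 (SE 0.11, adjusted p = 0.295, limma). S100A11 (ENSG00000163191.5, 1:152032506-152047907), a partner of annexin A1, stood at 7770, 5536 and 5558 in shControl and at 5118, 5896 and 5328 in shRNF25. Its groups overlapped as well, the high value of shControl 1 standing alone, and the log2 fold change was -0.19 (SE 0.15, adjusted p = 0.386, limma). The direction of S100A11 turned to 0.016 when libraries were scaled by their totals (CPM).

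The partner of S100A10 was read in the same libraries. ANXA2, annexin A2 itself, stood at 27344 normalized counts in shControl and 22938 in shRNF25 and was not called (log2 fold change -0.25, adjusted p = 0.113, limma). Per kilobase of exon there were 0.725, 0.785 and 0.923 reads of S100A10 for each of ANXA2 in shControl, and 1.05, 1.06 and 1.14 in shRNF25. The ratio was thus higher in each knockdown library than in each control, by a mean of 0.42 on the log2 scale (exact two-sided permutation p = 0.1, the smallest that 3 against 3 samples allow). Its level depends on exon lengths that take in every annotated exon, 8824 bases for ANXA2 and 1543 for S100A10. A ratio above 1 therefore does not show that S100A10 transcripts outnumbered those of ANXA2.

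S100A14 and S100A16 are neighbours on the minus strand and were abundant in both groups. S100A14 (ENSG00000189334.8, 1:153614255-153616986), an epithelial S100 protein, stood at 7032, 8239 and 8361 normalized counts in shControl and at 6568, 5952 and 5891 in shRNF25. The knockdown libraries lay below the controls, with a log2 fold change of -0.36 (SE 0.11, adjusted p = 0.0483, limma) that missed the 1.5-fold limit. That adjusted p was above 0.05 under other scalings, in edgeR (0.0715) and in 5 of the 6 fits that left out a library. S100A16 (ENSG00000188643.10, 1:153606886-153613145), a widely expressed member, stood at 7299, 9480 and 9162 in shControl and at 9791, 10062 and 10292 in shRNF25. Its groups did not overlap, but the difference was small and not called (log2 fold change 0.23, SE 0.12, adjusted p = 0.220, limma).

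Levels can be set between genes only per length, and were computed as RPKM, the reads per kilobase of exon relative to the library's counted reads. Exon length took in every annotated exon of a gene, and the order of close genes depends on it. For S100A16 it was 1701 bases, while its longest coding transcript has 1146, and for S100A8 it was 1006, while the longest has 523. In shControl, S100A6 stood at 456.0 ± 241.6, S100A11 at 441.8 ± 66.3, S100A9 at 358.8 ± 89.6, S100A14 at 297.6 ± 41.6, S100A16 at 245.6 ± 44.3 and S100A10 at 120.9 ± 17.3 in RPKM (SD, n = 3). S100A2 at 14.3 ± 7.06, S100A4 at 8.43 ± 4.94, S100A8 at 6.33 ± 2.09 and S100A3 at 2.49 ± 0.928 followed far below. Along this order only 3 of 9 neighbouring pairs had libraries that did not overlap, namely S100A16 over S100A10, S100A10 over S100A2 and S100A8 over S100A3. In shRNF25 the order was S100A6 at 1186 ± 155.6, S100A11 at 444.2 ± 26.9, S100A16 at 327.7 ± 4.83, S100A14 at 266.8 ± 21.0, S100A9 at 170.9 ± 19.4 and S100A10 at 156.2 ± 5.01. Below them came S100A2 at 64.8 ± 5.98, S100A4 at 27.7 ± 5.00, S100A3 at 4.57 ± 0.795 and S100A8 at 0.0512 ± 0.000936. There 8 of 9 neighbouring pairs did not overlap, S100A9 and S100A10 being the exception. S100A9 went from the third place to the fifth, and S100A8 from above S100A3 to the last place. The 10 genes together took 0.150%, 0.220% and 0.223% of counted reads in shControl and 0.298%, 0.264% and 0.286% in shRNF25, groups that did not overlap (exact two-sided permutation p = 0.1), with shControl 1 the lowest. S100A6, the least secure call, weighed heavily in this sum. It had 3437, 11174 and 11027 reads in shControl and 24641, 19405 and 22927 in shRNF25. Shares of counted reads are on the CPM scale, on which the log2 fold changes of all genes shifted upward by a median of 0.21.

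The genes that were called lie in a stretch of 274.2 kb, from S100A9 to S100A1. It holds 15 genes with a row, 13 of them of the S100 family. Of 13 tested there, 2 were called lower (S100A8 and S100A9), where 7.1% of all genes tested were, and 6 higher, where 8.65% were. S100A8 passed the filter on low values only through shControl. The lower pair lies at one end, and the higher genes begin with S100A6. In the 33.3 kb from S100A6 to S100A2, all 5 genes were of the family, and S100A6, S100A5, S100A4 and S100A2 were called higher while S100A3 was not. The genes of other kinds in the long stretch, the noncoding BX470102.1 and BX470102.2, had log2 fold changes of 0.49 (adjusted p = 0.180) and -0.13 (adjusted p = 0.627) and were not called (limma). In the separate stretch of 65.0 kb that holds S100A10 and S100A11, 0 of 3 tested genes were called by limma, 1 had an unadjusted p below 0.05, the opposite-strand noncoding AL450992.1 (log2 fold change 1.07, adjusted p = 0.0512), and this gene was called higher by edgeR and not by DESeq2.

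**Figure D2:**
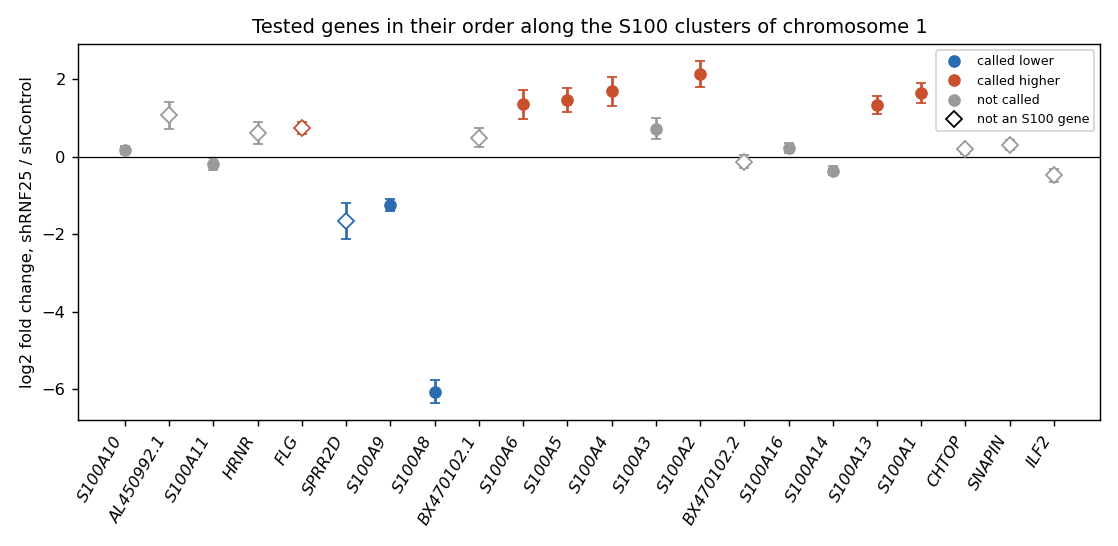
Log2 fold changes (shRNF25 over shControl) of the tested genes in and beside the S100 stretches, in their order along chromosome 1, with filled circles for S100 genes, open diamonds for other genes, colours for the call and bars for the SE. The lower genes S100A9 and S100A8 stand beside each other, and the genes from S100A6 to S100A2, all called higher but S100A3, form another run.

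The other genes of the S100 family were read from a list of 11 symbols, of which 8 had a row and 4 were tested. Of these, 3 were called higher and 0 lower by limma, and edgeR and DESeq2 gave the same counts, with 0 lower at an unadjusted p below 0.05. The shares of all genes tested were 8.65% higher and 7.1% lower (limma). S100A1, a muscle-enriched member, stood at 11.1, 18.5 and 17.3 normalized counts in shControl and at 51.9, 49.9 and 48.6 in shRNF25 (log2 fold change 1.65, adjusted p = 0.00234, limma). S100A5, best known from olfactory neurons, stood at 18.8, 43.1 and 39.9 against 92.9, 90.5 and 86.7 (1.47, adjusted p = 0.0086). S100A13, which takes part in the release of proteins without a signal peptide, stood at 102.8, 181.6 and 192.1 against 397.3, 356.5 and 411.8 (1.33, adjusted p = 0.00367). For each of the 3, knockdown libraries lay above the controls, and shControl 1 was again the lowest. Without that library their log2 fold changes were 1.44 for S100A1, 1.10 for S100A5 and 1.05 for S100A13. S100A1 and S100A13 overlap on opposite strands over 235 exon bases, and whether reads were counted by strand is not given in the sources used here, so reads from the shared bases could belong to either. S100A13 also shares 536 exon bases, or 24.2% of its own, with AL162258.1 on the same strand. S100P, a placental member that binds ezrin, stood at 223.3, 472.0 and 898.0 in shControl and at 813.7, 574.4 and 572.9 in shRNF25. Its groups overlapped and it was not called (log2 fold change 0.50, adjusted p = 0.419, limma). S100A12, the third calprotectin-like gene of granulocytes, had 10 reads in shControl and 1 in shRNF25, and S100A7, or psoriasin, had 5 and 3, too few for the test. S100B and S100G had no read in shControl and 2 and 3 reads in shRNF25.

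Annexins are the best known partners of S100 proteins. Of 11 annexins tested, 2 were called lower and 0 higher by limma, edgeR and DESeq2 alike, and 1 was higher at an unadjusted p below 0.05 (limma). For comparison, 7.1% of all genes tested were called lower and 8.65% higher (limma). ANXA6 stood at 4178 normalized counts in shControl and 2666 in shRNF25 (log2 fold change -0.64, adjusted p = 0.0048), and ANXA8 at 21.8 and 4.64 (-2.02, adjusted p = 0.0022). ANXA8 passed the filter on low values only through shControl, so it could enter the test only as a gene that differed. ANXA1, the partner of S100A11, stood at 3140 and 2427 and missed the fold limit (-0.37, adjusted p = 0.0412, limma). Of 4 receptors tested, 0 were called by limma, edgeR or DESeq2, and 1 was higher and 0 lower at an unadjusted p below 0.05 (limma). AGER, which encodes RAGE, stood at 96.4 and 143.3 normalized counts (log2 fold change 0.59, adjusted p = 0.0558), and BSG, a receptor of S100A9, at 10295 and 9067 (-0.18, adjusted p = 0.264). TLR4, the receptor through which calprotectin signals, was near 0 in both groups, at 2.13 and 5.29 normalized counts, and was not tested.

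Among 11 tested intracellular partners, 2 were called lower and 0 higher by limma, edgeR and DESeq2 alike, with 0 higher at an unadjusted p below 0.05 (limma). They were PLA2G4A, a phospholipase that releases arachidonic acid, at 422.8 and 181.6 normalized counts (log2 fold change -1.14, adjusted p = 0.0107), and MDM2, the ubiquitin ligase of p53, at 639.2 and 413.5 (-0.62, adjusted p = 0.0072). CACYBP, the partner of S100A6, was not called, at 1430 and 1137 normalized counts (-0.33, adjusted p = 0.0779, limma). Of 23 other EF-hand genes tested, 2 were called lower, EFHD2 at -0.97 (adjusted p = 0.0004) and CIB1 at -0.63 (adjusted p = 0.0146, limma), and 0 higher. By edgeR 3 were lower and 1 higher, by DESeq2 4 lower and 0 higher, and 1 was higher at an unadjusted p below 0.05 (limma). The median log2 fold change was -0.11 for annexins, -0.33 for intracellular partners and -0.15 for EF-hand genes, beside -0.013 over all genes tested. Of all genes tested, limma called 7.1% lower and 8.65% higher.

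**Figure D3:**
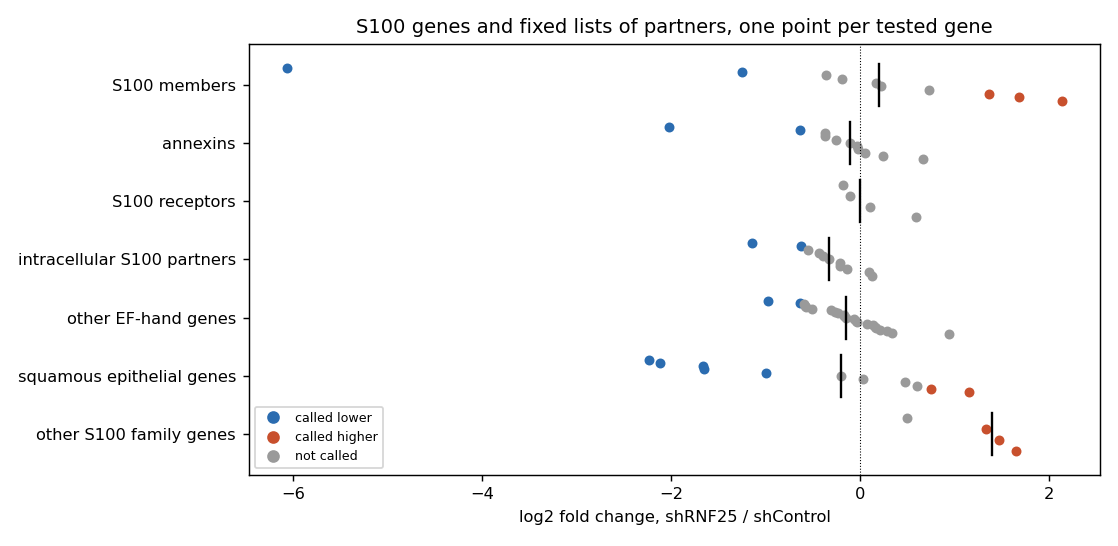
Log2 fold changes (shRNF25 over shControl) of the tested genes of the S100 family and of the lists of partners, receptors, EF-hand and squamous genes, with 1 point for each gene coloured by its call and a black line at the median of each list. S100A8 stands alone at -6.06, and no annexin, receptor, intracellular partner or other EF-hand gene was called higher by limma.

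Genes with a pattern like that of the extreme members were found from the root mean square difference of centred log2 values over the 6 libraries. For S100A8, the 3 most alike were IL1B at a difference of 0.354, CXCL5 at 0.412 and C3 at 0.447. IL1B, the inflammatory cytokine interleukin 1β, stood at 27438, 23458 and 19808 normalized counts in shControl and at 318.0, 212.4 and 295.5 in shRNF25. CXCL5, a chemokine that attracts neutrophils, had a mean of 3981 and 55.2, and C3, the central complement component, of 17201 and 433.5. For S100A2, the 3 most alike were LPAL2 at 0.117, FCGR1A at 0.146 and AL354813.1 at 0.148, which were all of low level, LPAL2 having a mean of 9.90 normalized counts in shControl and 42.2 in shRNF25. FCGR1A and AL354813.1 passed the filter on low values only through shRNF25, so they could enter the search only as genes that differed.

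**Figure D4:**
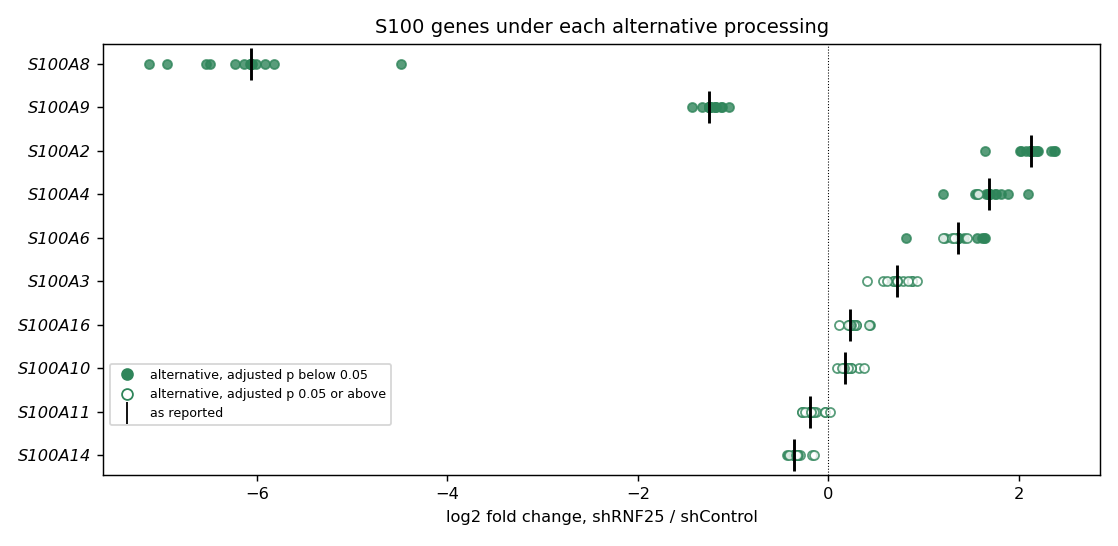
Log2 fold changes (shRNF25 over shControl) of the 10 S100 genes under each alternative processing, with filled circles where the adjusted p was below 0.05, open circles otherwise and a bar at the value reported. S100A8, S100A9 and S100A2 stayed below 0.05 under every alternative shown, and S100A11 was the only gene with a value on the other side of 0.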

How the data were processed

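Total RNA of SW839 cells was sequenced in 6 libraries, 3 shRNF25 and 3 shControl, grouped by title. The authors deposited normalized counts per gene, a signal that can be fractional. Their processing notes name fastp, HISAT2, HTSeq and GRCh38, without versions, and the annotation and strand setting are not given in the sources used here. Each library's values stepped by a constant amount, and division by it returned whole reads for 100% of values (largest deviation 6.10e-05 reads), with scaling factors of 0.905 to 1.10. Depth was 18647460 to 19943154 counted reads per library. The deposited scaling was kept.

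The test was limma 3.58.1 (R 4.3.3) on log2(normalized count + 1), with lmFit and eBayes, a mean-variance trend and group as the only term. The 16554 genes reaching 10 in 3 or more libraries entered it, and p-values were adjusted over all of them (Benjamini-Hochberg, limma, unless another tool is named). Ratios and summed shares were compared with two-sided exact permutation tests (scipy 1.17.1). The script was tested on simulated data. Coordinates, exon lengths and overlaps came from GENCODE 29, and start regions from RefSeq, which listed a window for 19 of the 21 family symbols, all 10 members included. Of the members, S100A11 alone shared words of 50 bases with another gene, 12 of them or 2.2%, and S100A6 shared 23 exon bases with the opposite-strand BX470102.1.

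Alternatives were other pseudocounts, filters and scalings, edgeR 4.0.16 and DESeq2 1.42.0 on whole reads, a replicate block and leaving out each library. The members and lists were chosen with earlier results of these data known. Named genes were all members, RNF25, the other family genes with a row, ANXA2, ANXA1, AGER, TLR4, BSG, CACYBP, up to 3 genes called in each direction per other list, and the 3 genes most like the extreme members. Marker levels and neighbours beside the results were added after their values were seen.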

Additional observations from a re-analysis of the deposited data

How the results depend on the processing

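The count of members called lower was 2 under each of 17 alternatives, and the count called higher was 3 except with DESeq2, where it was 2, and when a library was left out, where it ranged from 1 to 3. S100A8 was 1 of the 2 lower, and where a filter on low values was used it passed only through shControl. Leaving out a library gave log2 fold changes of 1.20 to 2.09 for S100A4, 0.82 to 1.64 for S100A6 and -0.44 to -0.31 for S100A14, whose adjusted p was then 0.0856 to 0.201 in 5 of 6 fits and below 0.05 only without shControl 1. S100A6 lost its call with DESeq2 on whole reads (1.21, adjusted p = 0.0630). S100A14, already short of the fold limit, also rose above an adjusted p of 0.05 without the filter on low values (-0.36, adjusted p = 0.0844), after quantile normalization (-0.17), after rescaling on the median ratio of high genes (-0.29), in edgeR (-0.33) and on CPM, a scaling chosen after seeing the data (-0.15). On CPM S100A11 turned to 0.016 (adjusted p = 0.936), and after quantile normalization S100A16 reached 0.44 (adjusted p = 0.0205). The cause of these changes was not tested. S100A8 kept a log2 fold change between -7.14 and -4.49, S100A9 between -1.43 and -1.04 and S100A2 between 1.65 and 2.38. Deviations of libraries with the same replicate number correlated at -0.0638, -0.0874 and 0.0471 over all genes tested, within the -0.139 to 0.183 of libraries with different numbers. Such correlations cannot exclude that libraries of the same number were handled together, with an effect on some genes. With the replicate as a block S100A14 stood at -0.36 (adjusted p = 0.1002), no other member changed its side of the threshold, and 1193 genes were lower and 1398 higher in all. Over all genes, 1175 were called lower and 1432 higher, 898 higher with a minimum of 50, 684 lower and 2377 higher on CPM, and 813 to 1269 lower and 748 to 1725 higher with a library left out. With 1 read per knockdown library, depth limits any finer value for S100A8.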
